A study of Mus musculus with 48 samples.

Results

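Adenosine-to-inosine (A-to-I) editing was compared in whole brain between mice with editing-dead ADAR1 and mice with wild-type ADAR1. The 6 brain libraries, of 48 in the whole series, were chosen by their tissue label. Of them, 3 came from Adar1E861A/E861A Ifih1-/- mice (called E861A), which carry a germline point mutation in both copies of Adar1 and make an ADAR1 protein that cannot deaminate adenosine in any cell. The other 3 came from Adar1+/+ Ifih1-/- mice (called WT), whose ADAR1 can edit. Both genotypes were null for Ifih1, which encodes MDA5, so neither is a fully wild-type mouse, and an Ifih1-proficient brain was not among these libraries. All animals were 12-week-old C57BL/6 males, and each library was an independent animal. In mmPCR-seq, cDNA segments that hold known editing sites are amplified with pooled primers and sequenced, and editing at a position is measured as the percentage of reads showing guanosine where the genome has adenosine. Of 48715 listed positions, 3949 were covered, which meant over 100 reads in 2 or 3 animals of each genotype. A covered site counted as edited if its pooled level passed 1% in WT or in E861A. This left 808 sites with 180 gene labels, of which 631 were read in all 6 libraries. Near that limit, 33 sites had a highest pooled level of 1 to 1.1% and 18 lay between 0.9 and 1%.

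ADAR enzymes bind double-stranded RNA and convert adenosine to inosine, which the ribosome and reverse transcriptase read as guanosine. ADAR1 is known for editing inverted repeats in untranslated and intronic RNA, which keeps MDA5 from sensing the cell's own RNA. ADAR2, encoded by Adarb1, acts in neurons and is known for the glutamine-to-arginine (Q/R) site of Gria2, where editing closes the channel to calcium. Sites at which editing changes an amino acid are called recoding sites, and many lie in receptors and ion channels of neurons.

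Coverage summed over all positions was 6802358 to 8642824 per brain library, and the edited sites read in all 6 libraries had a median of 1900 reads in WT and 1707 in E861A. The WT libraries covered fewer positions above 100 reads (3613, 3761 and 4857) than the E861A libraries (5016, 5633 and 5931). Between 11 and 12 of 12 neuronal transcripts of a marker list had a site above 100 reads in each brain library, against a median of 7 (2 to 11) in the other 42 libraries, with Grm4 the weakest in brain at 2 to 592 reads. WT replicate 1 stood apart: among 70 genes with at least 3 sites it had 8 whose mean level was under 1% while the median of the other 5 libraries exceeded 5%, against 1 to 3 such genes in each other library. Among the neuronal transcripts, the highest read count at a Gria2 site was 8872 to 10692 in WT and 4646 to 6077 in E861A. Gria4, Htr2c, Cadps and Kcna1 likewise had fewer reads in every E861A library than in every WT library. Gabra3 had more (1911 to 2552 against 274 to 977), and the rest of the list overlapped. The cause was not tested. Reads were amplified without molecular tags, so how many RNA molecules lie behind a level is unknown.

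The edited adenosines on which the comparison turns are shown within 21 bases of the transcribed strand, read from mm9 by the coordinates of the files, with the edited adenosine in capitals. The following 5 are leading sites of genes whose editing fell in E861A brain, all in 3′ UTRs except Htr2c, which is coding.
Htr2c chrX:143604219-143604239 (plus strand): gtatgtagcaAtacgtaatcc
Car5b chrX:160415954-160415974 (minus strand): ttaaaagagaAggtctcatct
Nup155 chr15:8109479-8109499 (plus strand): acttccaagtActggaaatcc
Ttbk2 chr2:120559547-120559567 (minus strand): ctgagctggaActtgctctgt
Cisd2 chr3:135069824-135069844 (minus strand): attaacagatAgttgtgagct

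Recoding sites edited in all 6 libraries are shown next, starting with the Q/R sites of 3 glutamate receptor subunits, which share most of their surroundings. The last of them, in Unc80, had lower levels in E861A.
Gria2 Gln-to-Arg chr3:80510824-80510844 (minus strand): gcctttatgcAgcaaggatgc
Grik1 Gln-to-Arg chr16:87940778-87940798 (minus strand): gctctcatgcAgcaaggtaca
Grik2 Gln-to-Arg chr10:48964126-48964146 (minus strand): gctctcatgcAgcaaggtata
Gria2 Arg-to-Gly chr3:80496198-80496218 (minus strand): atcctcattaAggtgggtgga
Gria4 Arg-to-Gly chr9:4455996-4456016 (minus strand): ttcctcattaAggtgggtgga
Kcna1 Ile-to-Val chr6:126592166-126592186 (minus strand): tgtgctgacaAttgccctgcc
Cyfip2 Lys-to-Glu chr11:46086135-46086155 (minus strand): cagatacattAagaccagtgc
Unc80 Ser-to-Gly chr1:66719278-66719298 (plus strand): tcttcatctcAgcccttatct

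The last set are 3′ UTR adenosines above 1% in all 3 E861A libraries and in no WT library, in Bri3bp, in the transcript uc012eok.1 (within Tia1) and in Dclre1c.
Bri3bp chr5:125937838-125937858 (plus strand): ctctgtgtaaAccaggctgcc
uc012eok.1 chr6:86364921-86364941 (plus strand): tgactaccatAgtaagttcta
uc012eok.1 chr6:86364925-86364945 (plus strand): taccatagtaAgttctagact
Dclre1c chr2:3377637-3377657 (plus strand): ttaaaataaaActagcaccat

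Editing fell in E861A brain in Htr2c and in the 3′ UTRs of Wipi2, Car5b, Nup155, Cisd2 and Ttbk2, while the mean of Gria2 lay between 50.0 and 52.0% in every library. At the level of genes, with 1 value per gene and library, 6 of 70 genes fell in E861A (8.57% of those tested) and 0 rose (limma, Benjamini-Hochberg adjusted p under 0.05). At an unadjusted p under 0.05, 11 genes were lower (15.7%) and 1 higher (1.43%). The mean level was lower in E861A for 53 of the 70 genes (75.7%). The genotypes did not overlap in 21 genes, E861A being lower in 20 (28.6%) and higher in 1 (1.43%). In whole brain, a lower level within the edited cells and a smaller share of transcripts from those cells cannot be told apart.

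**Figure D1:**
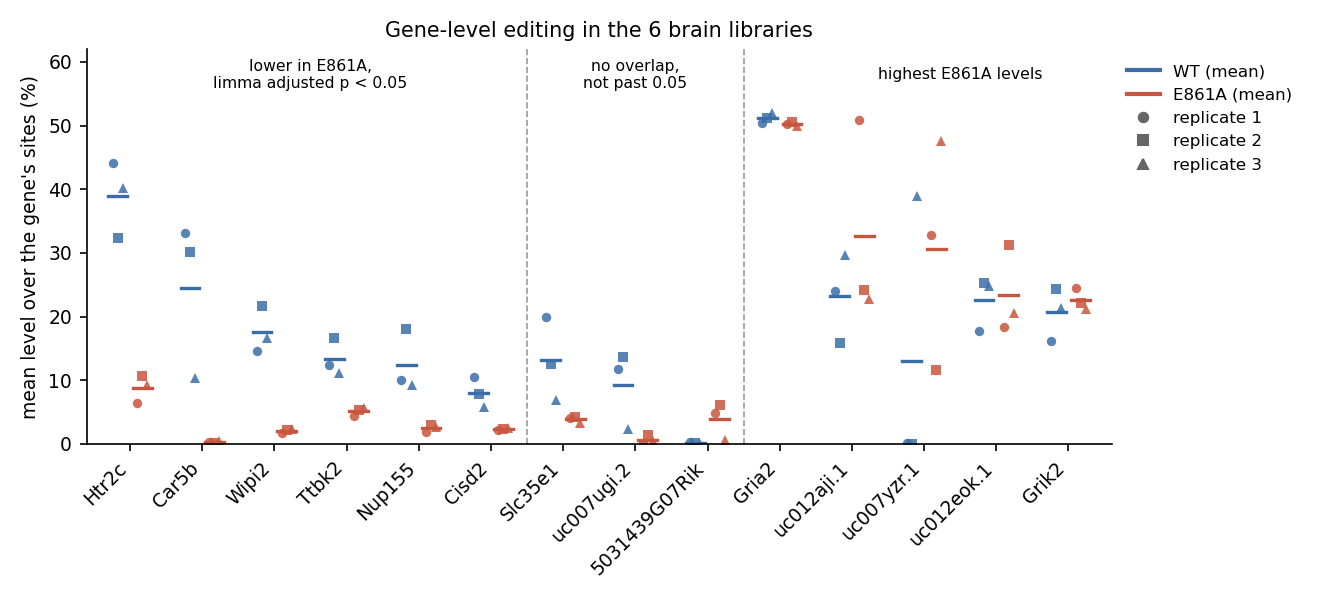
Mean editing level (%) over the edited sites of 14 genes in each of the 6 brain libraries, with replicates as symbols and the genotype mean as a line. In the 6 genes at left, which passed the limma threshold, the E861A libraries lay at 10.6% or less and below every WT library, while Gria2 stayed at 50.0 to 52.0% in all 6.

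Htr2c encodes a serotonin receptor whose coding sites alter G protein coupling. Over its 5 sites the mean level was 44.1, 32.4 and 40.1% in the WT libraries and 6.48, 10.6 and 9.31% in the E861A libraries. The WT mean was 38.9% ± 5.94 and the E861A mean 8.81% ± 2.12 (SD, n = 3 each), a log2 change of -2.61 with standard error (SE) 0.28 (adjusted p = 0.00385 by limma). The levels differed most at the first 2 coding adenosines, neither of which passed alone (adjusted p = 0.13 by limma). At 143604229 the WT libraries had 98.5, 70.6 and 80.4% and the E861A libraries 8.20, 16.1 and 5.64%. At 143604231, 2 bases downstream, they had 98.6, 63.4 and 51.5% against 0, 0.233 and 3.07%. The 3′ UTR site at 143630236 was at 17.4, 21.9 and 13.7% against 11.9, 13.0 and 9.82%, again without overlap. In the opposite direction, the coding adenosine at 143604241 lay at 3.48 and 4.61% in the 2 WT libraries with enough reads and at 27.5, 32.2 and 19.9% in E861A, a difference that did not pass over all sites (limma adjusted p = 0.282). This site was not read in all 6 libraries, so the 5 sites of the mean leave it out. The coding sites between 143604231 and 143604241, which change asparagine, overlapped between the genotypes.

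Wipi2, whose product binds phosphoinositides on forming autophagosomes, was called under all 13 alternative settings in which it was tested. Its 3 sites in the 3′ UTR had a mean of 14.5, 21.6 and 16.7% in WT and 1.66, 2.12 and 2.29% in E861A (log2 change -2.86, SE 0.29, adjusted p = 0.00385 by limma). At 143145189 the levels were 24.9, 42.1 and 30.6% in WT against 2.96, 2.07 and 1.68% in E861A. The adjacent adenosine at 143145190 lay at 17.2, 16.4 and 17.6% against 0.378, 0.671 and 0.510%. Only 5 bases further on, at 143145195, the genotypes overlapped (3.26% ± 2.62 and 3.31% ± 1.55, SD, n = 3 each). Exact copies of the 21 bases around the Wipi2 site at 143145190 occur elsewhere in mm9, 51 with A and 2 with G at the site, and any part of misplaced reads in its level was not tested.

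Car5b encodes a mitochondrial carbonic anhydrase, and its 3′ UTR lost nearly all editing. The mean of its 3 sites was 33.1, 30.2 and 10.4% in WT and 0.290, 0.192 and 0.402% in E861A (log2 change -4.56, SE 0.58, adjusted p = 0.00696 by limma). At 160415964 the WT libraries had 58.3, 61.0 and 25.7% and the E861A libraries 0.267, 0.145 and 0.348%. The neighbouring adenosine at 160415965 had 36.5, 29.6 and 5.50% against 0.396, 0.285 and 0.771%.

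Nup155, a scaffold protein of the nuclear pore, had a mean over 6 sites of 10.0, 18.0 and 9.22% in WT and 1.83, 2.98 and 2.65% in E861A (log2 change -2.06, SE 0.38, adjusted p = 0.0337 by limma). Its leading site, at 8109489, lay at 57.0, 38.4 and 24.9% against 9.76, 12.3 and 10.0%, so part of the editing there remained. Cisd2, an iron-sulphur protein of the endoplasmic reticulum and mitochondrial membranes, had 10.5, 7.90 and 5.78% in WT and 2.25, 2.35 and 2.55% in E861A over 3 sites (log2 change -1.47, SE 0.31, adjusted p = 0.0458 by limma). Nearly all of this came from the site at 135069834, with 24.6, 18.2 and 10.9% in WT and 2.47, 1.73 and 2.18% in E861A. Its neighbour at 135069812 lay at 4.78% ± 1.12 and 4.43% ± 0.694 (SD, n = 3 each).

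Ttbk2 encodes a tau tubulin kinase needed for building cilia, and Cdan1 is annotated on the same strand at these positions, so its reads could belong to either gene. Its 8 sites had means of 12.4, 16.7 and 11.1% in WT and 4.45, 5.38 and 5.68% in E861A (log2 change -1.34, SE 0.29, adjusted p = 0.0458 by limma). The sites differed widely. At 120559557 WT had 50.6, 47.5 and 24.2% and E861A 0.607, 1.48 and 0.134%. At 120559571, 14 bases away, the levels were 8.07, 8.92 and 8.47% against 6.63, 7.29 and 4.89%. At 120562747 the E861A libraries (3.56, 0.258 and 1.43%) lay above the WT libraries (0, 0.223 and 0%).

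These gene calls rested on few animals. Without WT replicate 2, 3 passed (Car5b, Htr2c and Wipi2). Without WT replicate 1 only Wipi2 passed among the 5 of these genes that could be tested, which left out Car5b. The change of Htr2c was then -1.68 (adjusted p = 0.0658 by limma). Sites were chosen anew after each removal, and without WT replicate 1 the Htr2c mean took in the rising site at 143604241. That value therefore reflects a changed set of sites as well as fewer animals. Without E861A replicate 1 or 2 only Wipi2 and Htr2c passed, and on the untransformed level the same 2. Without WT replicate 3, 10 passed, of which 9 were lower.

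Some of the genes that separated the genotypes did not pass the test. Slc35e1, a member of a nucleotide-sugar transporter family, had 20.0, 12.6 and 6.98% in WT and 4.07, 4.31 and 3.25% in E861A (limma adjusted p = 0.114). The non-coding transcript uc007ugi.2, within Dleu2, had 11.8, 13.6 and 2.28% against 0.146, 1.38 and 0.479% (limma adjusted p = 0.114). The single gene above in all E861A libraries was 5031439G07Rik, an intronic cluster with 0.260, 0.126 and 0% in WT and 4.79, 6.07 and 0.687% in E861A (limma adjusted p = 0.219).

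Among single sites, 0 of 808 passed the limma threshold in either direction (0% of those tested). Before adjustment, p was under 0.05 at 39 lower sites (4.83%) and 17 higher sites (2.1%). A quasi-binomial model called 1 site lower, Wipi2 at 143145190. Asking for more than 100 reads in all 3 replicates of both genotypes, limma called 4 of 631 lower, in Car5b, Ttbk2 and at both Wipi2 sites above. By the criterion of the study's methods, an F test p under 0.1 with means at least 5 percentage points apart and no adjustment, 46 sites were lower (5.69%) and 17 higher (2.1%). At 404 of the 631 sites (64.0%) the genotype means lay within 5 percentage points of each other. E861A was lower by 5 points or more at 24.2% of them and higher by as much at 11.7%. The median level of the 631 sites was 4.67% in WT and 2.77% in E861A. At many of them a fall of 5 points was therefore not possible, even with all editing lost.

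**Figure D2:**
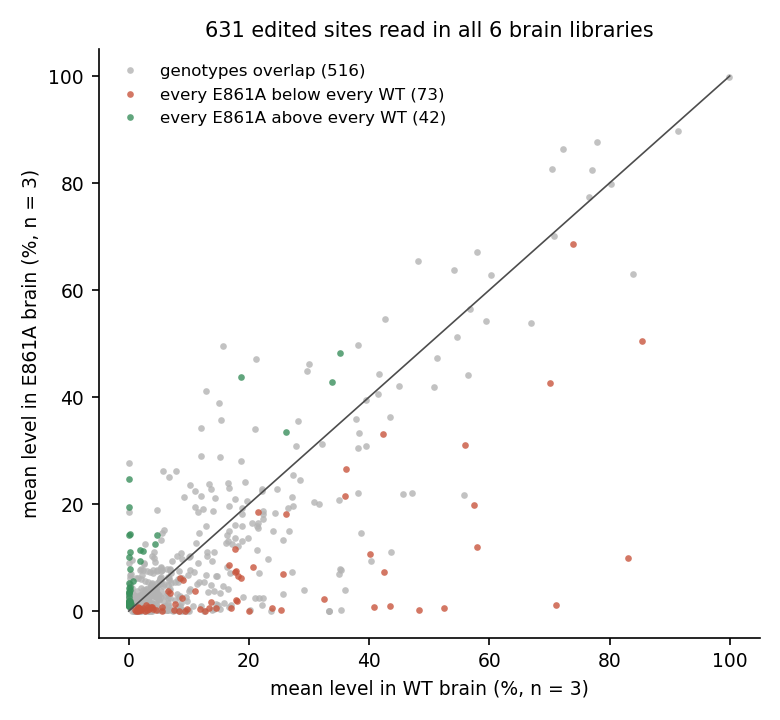
Mean editing level (%) of each edited site in WT brain (x axis) against E861A brain (y axis), n = 3 each, for 631 sites read in all 6 libraries, with the line of equal level. The 73 sites wholly lower in E861A lie along the bottom of the plot as well as near the line, and the 42 wholly higher lie mostly at low levels.

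The genotypes did not overlap at 73 of 631 sites with E861A lower (11.6%) and at 42 with E861A higher (6.66%). Sites were also sorted by the number of libraries above 1%. Of 200 sites above 1% in all 3 WT libraries, 78.0% were so in all 3 E861A libraries too, with a median level of 18.8% in WT and 15.2% in E861A. The share was 28 of 29 for recoding sites (96.6%) and 92 of 124 for 3′ UTR sites (74.2%). These classes start from unlike levels, with a median in WT of 17.7% over all nonsynonymous and 4.20% over all 3′ UTR sites. A recoding site can thus lose much of its editing and stay above 1%, as Htr2c did at 143604229. Read the other way, 246 sites were above 1% in all 3 E861A libraries and 63.4% of them were so in all 3 WT libraries, with 90.3% for recoding sites and 60.1% for 3′ UTR sites.

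In contrast, 16 sites were above 1% in all WT libraries and in no E861A library, at a median of 10.8% in WT and 0.378% in E861A. They comprised 14 sites in 3′ UTRs, 1 intronic and 1 in non-coding RNA, where 382 of all 631 sites were in 3′ UTRs, 41 nonsynonymous and 18 synonymous. Beside both Car5b sites and the Wipi2 site at 143145190 described above, they included Igf2, the gene of insulin-like growth factor 2, with 9.66, 14.5 and 11.7% in WT and 0.299, 0.403 and 0.227% in E861A at 149839178. At Sh2d5, an adaptor protein gene of neurons, the site at 137815945 had 5.79, 31.1 and 23.4% against 0, 0.0387 and 0%. Dcaf10, a substrate receptor of a ubiquitin ligase, had 9.24, 14.2 and 1.71% at 45390013 against 0 edited reads in all 3 E861A libraries. The other members lay in Ttbk2 (120559558), Nup155 (8109486), uc007ugi.2 (62295239), Snhg11, Dusp11, uc009evr.1, Nrp1, Tln2, Taok1 and Tox4. These categories were formed from the levels themselves and carry no test.

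Only 6 sites showed the reverse, above 1% in all E861A libraries and in no WT library. At Bri3bp, whose product binds a brain transmembrane protein, the site at 125937848 lay at 0.691, 0 and 0.0929% in WT and at 23.1, 11.5 and 8.39% in E861A. The same 3′ UTR held a site with the opposite pattern, at 125936975, with 66.4, 65.1 and 42.3% in WT and 16.3, 9.67 and 10.2% in E861A. In uc012eok.1, within the gene of the stress granule protein TIA1, 86364931 had 0, 0.0917 and 0% against 6.98, 36.1 and 15.2%, and 86364935 had 0.136, 0.164 and 0.146% against 7.24, 16.0 and 10.1%. At Dclre1c, the gene of the DNA repair nuclease Artemis, 3377647 had 0, 0.364 and 0.112% against 5.70, 13.4 and 4.56%. The remaining 2 were Gnl3l at 147419991 (0.179, 0.0485 and 0% against 12.9, 18.5 and 11.0%), whose 21 bases recur 194 times with A and 1 time with G elsewhere in mm9, and an intronic site of Grik2 at 48962325 (0.0497, 0.800 and 0.0328% against 8.66, 2.88 and 1.76%). None of the 6 passed limma over all sites, with adjusted p from 0.13 to 0.653.

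Ionotropic glutamate receptors carry fast excitatory transmission, and their edited sites set calcium permeability and recovery from desensitization. Of 10 genes on this list, 5 had edited sites in the brain, 23 in all. None was called, 9 had a lower and 14 a higher mean in E861A, and the median difference was 0.492 percentage points, against -0.838 over all 808 sites. The genotypes did not overlap at 2 lower sites and 1 higher, beside 11.6% and 6.66% over all sites. The Q/R site of Gria2 was edited in more than 99% of reads in every library. Its Arg-to-Gly site lay at 71.6, 75.7 and 74.4% in WT and at 69.5, 68.6 and 67.7% in E861A, a small difference without overlap that did not pass (log2 change -0.36, SE 0.45, adjusted p = 0.735 by limma). The synonymous hotspot at 80510830, 4 bases from the Q/R site, lay at 24.2, 27.4 and 31.9% against 30.3, 32.5 and 29.8%.

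The other AMPA receptor subunits overlapped between the genotypes. The Arg-to-Gly site of Gria3 (39007429) was at 61.7, 42.9 and 69.2% in WT and 62.0, 66.6 and 72.6% in E861A, and that of Gria4 (4456006) at 87.9, 89.0 and 97.4% against 87.2, 94.2 and 87.8%. In the kainate receptor subunit Grik2, the Q/R site had 56.1, 77.2 and 77.8% in WT and 83.3, 87.2 and 77.3% in E861A. Its Tyr-to-Cys site (48992582) had 58.7, 88.5 and 86.5% against 95.3, 86.8 and 81.0%. Its Ile-to-Val site (48992595) had 58.6, 89.3 and 81.9% against 83.4, 71.9 and 77.1%. At all 3 Grik2 sites WT replicate 1 was the lowest library, and the other WT libraries lay within 6 percentage points of at least 1 E861A library. The Q/R site of Grik1 was at 45.5, 66.9 and 66.1% against 59.2, 57.3 and 46.4%. Grik2 also had 7 intronic sites, which GENCODE places in exons of the gene. One of them, at 48962343, lay at 32.3, 5.52 and 3.39% in WT and at 0.638, 1.78 and 2.59% in E861A, while 48962350, 7 bases away, lay at 0, 38.0 and 17.8% against 35.8, 25.9 and 22.2%.

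**Figure D3:**
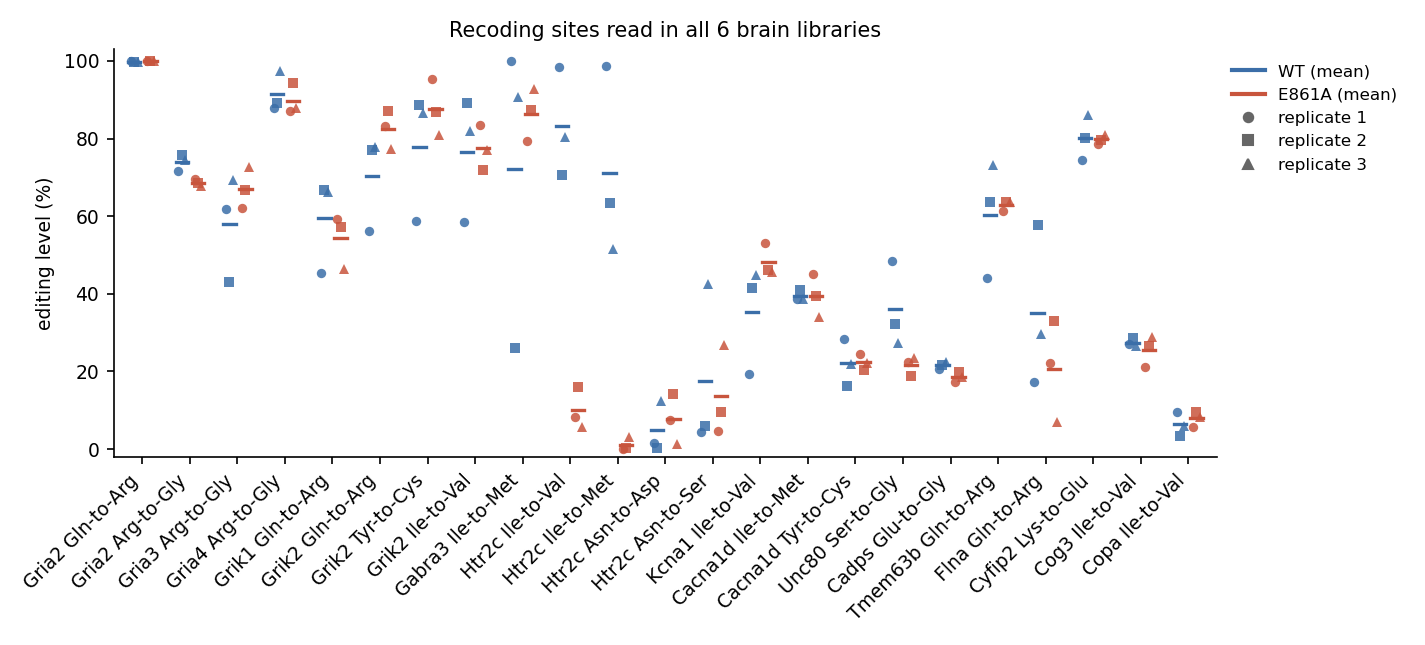
Editing level (%) of 23 recoding sites in the 6 brain libraries, with replicates as symbols and the genotype mean as a line. The Ile-to-Val site at 143604229 and the Ile-to-Met site of Htr2c lie at 16.1% or less in every E861A library and at 51.5% or more in every WT library, while at most other sites the genotypes overlap.

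Of 5 other receptors listed, 3 had edited sites, 8 in all, with 5 lower and 3 higher in the mean. Among the 6 of these read in all libraries, 3 were without overlap, all lower and in Htr2c, beside 11.6% lower and 6.66% higher over all sites, while Htr2c at 143604241, read in 5 libraries, was higher in each E861A library than in both WT libraries. Gabra3 encodes a GABA-A receptor subunit, and its Ile-to-Met site had 100, 25.9 and 90.7% in WT and 79.3, 87.2 and 92.7% in E861A. The low WT library, replicate 2, was also the shallowest there, with 274 reads. Grm4, a metabotropic glutamate receptor gene, had a level above 1% in a single library, 3.60% in WT replicate 3.

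Channels and exocytosis genes carried 9 edited sites in 5 of 8 listed genes, with 3 lower and 6 higher in the mean. The genotypes did not overlap at 3 lower sites (2 in Unc80 and 1 in Cadps) and 1 higher, in Kcna1, beside 11.6% and 6.66% over all sites. Kcna1 encodes a voltage-gated potassium channel whose Ile-to-Val site speeds recovery from inactivation. Among recoding sites read in all 6 libraries it was the only one at which E861A lay wholly above WT, at 53.2, 46.1 and 45.7% against 19.4, 41.5 and 44.8%. WT replicate 3 was within 1 percentage point of E861A replicate 3, and the difference did not pass (log2 change 0.83, SE 0.65, adjusted p = 0.701 by limma). Unc80, part of the sodium leak channel complex, showed the reverse at its Ser-to-Gly site, with 48.4, 32.1 and 27.4% in WT and 22.5, 18.8 and 23.4% in E861A (limma adjusted p = 0.701). The Glu-to-Gly site of Cadps, a priming factor of dense-core vesicles, lay at 20.6, 21.6 and 22.4% against 17.4, 19.9 and 18.6%, with limma adjusted p = 0.838. Cacna1d, an L-type calcium channel, differed little: its Ile-to-Met site was at 39.5% ± 1.39 in WT and 39.5% ± 5.49 in E861A, and its Tyr-to-Cys site at 22.2% ± 6.10 and 22.4% ± 2.03 (SD, n = 3 each). The Gln-to-Arg site of Tmem63b, a mechanosensitive channel gene, was at 44.1, 63.5 and 73.1% against 61.3, 63.6 and 63.5%.

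In the list of cytoskeleton, Golgi and RNA-binding targets, 7 of 13 genes had edited sites, 12 in all, and the genotypes overlapped or lacked a full set of libraries at each of them. The Lys-to-Glu site of Cyfip2, an actin regulator at synapses, was at 74.4, 80.2 and 86.0% in WT and 78.7, 79.7 and 81.0% in E861A. The Gln-to-Arg site of Flna, which encodes an actin-crosslinking filamin, lay at 17.3, 57.7 and 29.7% against 22.1, 33.0 and 6.99%. Cog3, a Golgi tethering protein, had 27.0, 28.6 and 26.5% against 21.1, 26.6 and 28.8% at its Ile-to-Val site. Copa, of the COPI coat, had 9.64, 3.42 and 5.97% against 5.66, 9.62 and 8.35%. The splicing factor gene Nova1 had 1.06 and 21.1% in 2 WT libraries and 5.64, 28.4 and 22.6% in E861A at its Ser-to-Gly site.

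ADAR2 edits its own pre-mRNA, and Adarb1 had 10 intronic sites within 46 bases, which GENCODE places in exons of Adarb1. None was called, and 1, at 76786842, was without overlap, at 0% in the WT libraries and 0.213, 3.55 and 0.0645% in E861A, where 6.66% of all sites were so. The mean of the 10 was 47.6, 8.51 and 24.1% in WT and 20.3, 24.4 and 20.7% in E861A (26.7% ± 19.7 and 21.8% ± 2.27, SD, n = 3 each). In WT replicate 1 the sites at 76786805, 76786813 and 76786829 all stood at 99.8%, while those at 76786833, 76786834 and 76786840 stood at 58.3, 58.1 and 58.5%. In WT replicate 2 the same 6 sites had 52.0, 0.0835, 15.1, 14.5, 3.21 and 0.0815%. The E861A libraries were closer together, with 85.6, 77.8 and 83.8% at 76786805 and 47.1, 46.9 and 38.4% at 76786829. Positions of Adar itself and Adarb2 were below the coverage limit, and of 18 listed genes of double-stranded RNA sensing and the interferon response 2 were in the tables (Trim12a and Trim12c) and 0 were covered.

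The spread between WT libraries exceeded that between E861A libraries. The SD was larger in WT at 435 of 631 sites (68.9%), with a median of 3.89 percentage points against 1.91. Among 199 sites with a mean of at least 5% in both genotypes the median SD was 10.3 against 4.99 percentage points, and the libraries spanned more than 20 points at 99 of these sites in WT and 43 in E861A. The median coverage of these sites was similar (2010 and 1769 reads), but reads do not count molecules. Whether animals or the sampling of molecules gave the spread cannot be told apart here. Wide spans also appeared in genes of high E861A level. In uc007yzr.1, within Lrch3, the mean of 6 sites was 0.147, 0 and 39.0% in WT and 32.8, 11.7 and 47.6% in E861A, and in uc012aji.1, within Tulp4, it was 24.1, 15.9 and 29.7% against 50.9, 24.1 and 22.8%.

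Over the 631 sites the mean level was 11.2, 12.0 and 11.7% in WT and 9.54, 9.21 and 8.61% in E861A, a difference of -2.51 percentage points (p = 0.1 by a two-sided exact permutation test, which cannot go lower with 3 animals a group). By annotation class of the files, the 382 sites in 3′ UTRs lay at 9.26, 10.9 and 10.1% in WT and 7.90, 7.60 and 7.31% in E861A, a difference of -2.48 points. The 91 intronic sites lay at 12.8, 10.3 and 9.31% against 6.61, 7.90 and 7.58%, and the 65 intergenic sites at 9.49, 12.5 and 9.64% against 7.11, 7.63 and 6.02%. In these 3 classes no E861A library reached a WT library (exact permutation p = 0.1 and adjusted p = 0.22 in each, over 11 classes). Sites in 5′ UTRs (9) and non-coding RNA (25) overlapped widely, at 7.02% ± 7.40 and 13.0% ± 5.37 for 5′ UTRs and 15.4% ± 3.25 and 14.8% ± 5.60 for non-coding RNA (SD, n = 3 each). The sign of the non-coding RNA difference was not stable, at -3.61 points without E861A replicate 1 and 1.30 without E861A replicate 3.

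**Figure D4:**
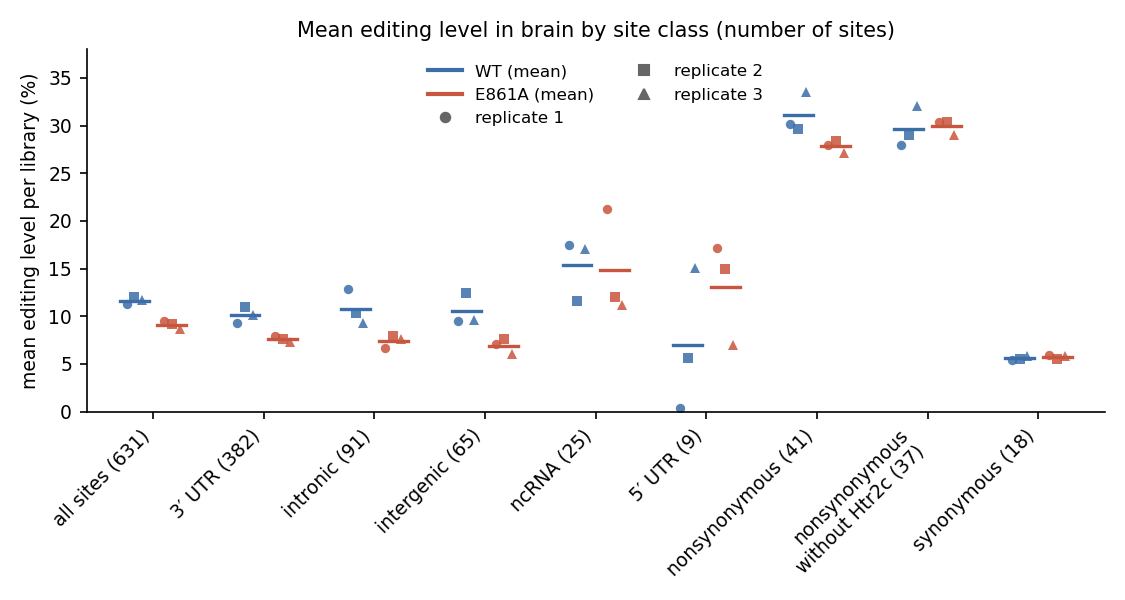
Mean editing level (%) per brain library by annotation class, with the number of sites in brackets, replicates as symbols and the genotype mean as a line. E861A lies below WT for 3′ UTR, intronic and intergenic sites, and the gap at nonsynonymous sites closes without Htr2c.

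The 41 nonsynonymous sites lay at 30.1, 29.6 and 33.5% in WT and 28.0, 28.4 and 27.1% in E861A, a difference of -3.26 points without overlap (exact permutation p = 0.1, adjusted p = 0.22). It was -1.95 points without WT replicate 3 and -1.84 with 1 value per gene. It turned on Htr2c. Without its 4 nonsynonymous sites, a choice made after seeing the values, the other 37 lay at 27.9, 29.0 and 32.0% in WT and 30.4, 30.4 and 29.0% in E861A, a difference of 0.289 points (exact permutation p = 0.9). The same held for the 6 Ile-to-Val sites, with a difference of -10.3 points, which became 2.27 points over the 5 sites outside Htr2c. Over all classes without Htr2c the mean difference stayed at -2.29 points. At 30 of the 41 nonsynonymous sites (73.2%) the genotypes lay within 5 points, against 65.4% of 3′ UTR and 57.1% of intronic sites. Only 31 of the 41 lay outside Zfp397. The 18 coding sites of that gene had a mean of 2.31% in WT and 1.70% in E861A, which leaves little room for a gap of 5 points. The 6 Gln-to-Arg sites lay at 54.3% ± 9.15 and 53.6% ± 3.90 and the 18 synonymous sites at 5.58% ± 0.193 and 5.73% ± 0.221 (SD, n = 3 each). Among single sites outside the lists, Ccni (93618610, Arg-to-Gly) had 1.40, 0.915 and 0.773% against 0.186, 0.291 and 0.0606%. The labels of the files and GENCODE differed at some sites: an intergenic site on chromosome 5 (29779671), at 58.4, 83.7 and 68.4% in WT and 36.9, 43.8 and 47.2% in E861A, lies in a UTR of Nom1 in GENCODE, and 35 exact copies of its surroundings elsewhere carry G at the site.

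The bases next to the edited adenosine were counted as a description. ADARs are known to disfavour a guanosine before the adenosine and to favour one after it. A guanosine preceded 7.69% of the sites above 1% in all 6 libraries, 11.0% of the 808 edited sites and 26.5% of the 3141 covered sites at or under the limit. A thymidine (uridine in the RNA) preceded 44.2%, 34.2% and 16.3% of them, and a guanosine followed 50.0%, 45.4% and 32.3%. Among the 123 sites above 1% in a single library, the preceding base was guanosine at 25.2%, close to the covered sites at or under the limit. Sites wholly lower in E861A had a preceding guanosine at 11.0% (73 sites), and those wholly higher at 16.7% (42 sites). Of the 808 sites, 354 (43.8%) had an exact copy of their 21 bases elsewhere in the genome, with A or G at the site.

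The genotype difference in brain was set beside that of 3 other tissues at sites read in all 12 libraries of a pair of tissues. A site also had to be edited in either tissue of the pair, so sites edited in brain alone were included. Liver and kidney are rich in epithelial cells, and bone marrow is blood-forming tissue. At 607 sites shared with liver, brain had 9.30% ± 0.318 in WT and 7.06% ± 0.337 in E861A, and liver 4.54% ± 0.895 and 1.86% ± 0.111 (SD, n = 3 each). Brain E861A thus kept 76.0% of the WT mean and liver 41.0%. At 561 sites shared with kidney, brain kept 75.4% and kidney 33.4%, and at 332 shared with bone marrow brain kept 69.2% and bone marrow 14.2%. On the log2 scale of E861A over WT, brain exceeded liver by 0.89, kidney by 1.18 and bone marrow by 2.29. An exact two-sided permutation of genotypes within each tissue cannot give a p below 0.1 here, since E861A lay wholly below WT in both tissues of each pair, so it cannot show whether the effects differ, and these values are a description. These sizes depended on how sites were averaged: as a difference of mean log2 ratios over sites, brain exceeded liver by 0.48, kidney by 0.46 and bone marrow by 0.33, which reverses the order of the tissues. The 3 comparisons share the brain libraries.

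**Figure D5:**
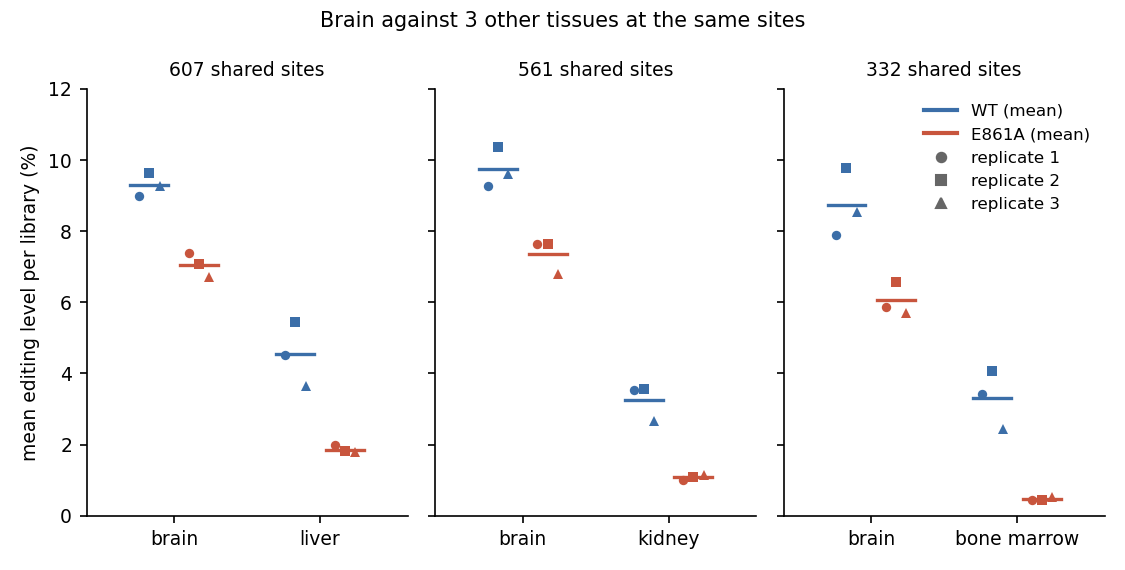
Mean editing level (%) per library at sites read in both brain and liver, kidney or bone marrow and edited in either tissue. Replicates are symbols and the genotype mean is a line. The E861A brain libraries lie at 5.70 to 7.65%, above the WT libraries of the other tissues, and the E861A libraries of bone marrow lie between 0.434 and 0.521%.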

How the data were processed

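Whole-brain cDNA of 3 WT and 3 E861A animals was amplified by mmPCR-seq. For each library the authors deposited the counts of covering and edited reads per position and their fraction, rounded to 3 decimals, with no normalization. The submitters' processing notes name mm9, STAR and SAMtools. All covered sites carry A on the annotated strand of mm9.

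Levels were recomputed from the counts, and replicates with 100 reads or fewer were missing. Genotypes were compared with limma 3.58.1 (lmFit, eBayes with trend, R 4.3.3) on log2((level + 0.01)/(1 - level + 0.01)), per site and per gene (mean over at least 3 sites read in all 6 libraries, intergenic sites left out), with Benjamini-Hochberg adjustment over all sites or genes and calls at 0.05. The printed log2 change refers to this quantity, and the offset understates changes of low levels. Library means were compared by exact permutation tests. Classes needed at least 5 sites, and nonsynonymous and synonymous totals were added after seeing the files. Python 3.11.15, pandas 2.3.3 and samtools 1.23.1 were used, and the fits were tested on simulated data.

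Members and gene lists were chosen with earlier results of these data known. Named were edited sites of the lists, per class up to 2 falls and 2 rises without overlap, of the genes without overlap the 6 largest falls and up to 6 rises (1 was found), the 5 genes with the highest E861A levels, and genes past the threshold. Other sites of the called genes, and the sites sorted by library count, were chosen after their values were seen. Summed coverage was 6802358 to 8642824 per library, and with no molecular tags the sampling of molecules and the spread between animals cannot be told apart. Replicate numbers did not pair the samples. The 2 series-wide expression tables were not used here, and 1 listed gene and 1 sequence are not reported here.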

Additional observations from a re-analysis of the deposited data

How the results depend on the processing

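Among the counts of calls, those of brain sites had the widest range. The count of lower genes stayed about the same in 5 of 14 alternatives, against 13 of 18 for lower sites. Against 0 lower and 0 higher by limma, 4 were lower with coverage in all 3 replicates, 1 by the quasi-binomial model, 46 lower and 17 higher by the study's criterion, and 124 lower and 93 higher in a fit over all 48 libraries. Leaving out each replicate in turn gave 0 to 7 lower and 0 to 5 higher sites, the highest without WT replicate 3. The 6 lower genes became 10 with at least 1 site per gene, 3 with at least 5, 2 on the untransformed level and 12 in the fit over all 48 libraries, which also called 3 higher. With at least 1 site per gene Cisd2 was lost from the 6, and in the fit over all 48 libraries Ttbk2 was. With a replicate left out and sites chosen anew, 1 to 9 genes were lower and 0 to 1 higher. With the replicate number as a block 3 genes and 0 sites were called. Same-numbered samples correlated at 0.0273, 0.0112 and 0.0848, so the numbers were not read as pairs. Of the 6 called genes, every alternative kept the direction, and Wipi2 stayed past the threshold in all 13 it was tested in.

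With the edited limit at 0.05 the difference of means became -4.21 points over all sites, -4.29 for 3′ UTR, -5.11 for intergenic, -5.85 for intronic, -5.06 for nonsynonymous and 2.54 for synonymous sites. Above 500 reads it was -3.12 points for 3′ UTR sites and 3.26 for non-coding RNA sites. With 1 value per gene, non-coding RNA sites gave -4.04, Tyr-to-Cys sites gave 2.68 and synonymous sites 0.394 points, and synonymous sites without Zfp397 gave 1.00. Without Htr2c, nonsynonymous sites gave 0.289 and Ile-to-Val sites 2.27 points. With a replicate left out the difference ranged from -3.05 to -2.26 over all sites, from -2.58 to 12.7 at 5′ UTR sites, from -3.61 to 1.30 at non-coding RNA sites and from -10.97 to -6.32 at Ile-to-Val sites. Near-zero gene values changed sign for Gria2 with all reads added (0.0042), and with a replicate left out for Grik2 (-0.0236 to 0.34) and uc012eok.1 (-0.25 to 0.24). The differences from other tissues, which the permutation could not test, kept their direction under the alternatives run, and as mean log2 ratios they were 0.48 (liver), 0.46 (kidney) and 0.33 (bone marrow). The cause of each change was not tested.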
